A study of Mus musculus with 4 samples.

Results

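The let-7 family with miR-98 was examined as 9 mature miRNAs, mmu-let-7a, mmu-let-7b, mmu-let-7c, mmu-let-7d, mmu-let-7e, mmu-let-7f, mmu-let-7g, mmu-let-7i and mmu-miR-98, chosen by name among the 567 mouse miRNAs of an Agilent miRNA array. Total RNA came from B104 cells, a clonal neuroblastoma line that the labels give as mouse. The study's methods trace the line to work on rat cells, so its species is not settled here, and the array, the miRNA names and the reference sequences are those of mouse. In the si group, 2 samples were transfected with a 20 nM siRNA duplex against RBM3, an RNA-binding protein induced by cold, and in the con group 2 samples were mock treated. All were harvested at 48 h. Each sample was read on 1 array labelled with Cy3, and the 4 arrays lay on 1 slide. The controls carried no non-targeting siRNA according to the labels, so on these arrays the presence of an siRNA and the loss of RBM3 cannot be told apart. In separate blots the study reported that the RBM3 siRNA lowered mature let-7g, while a scrambled siRNA slightly raised both RBM3 and mature let-7g. Its Northern blots of B104 cells, with a loading control, also showed less mature let-7i after RBM3 knockdown. RBM3 mRNA is not read by this array, so the knockdown itself was not checked here. The study blotted RBM3 protein in the experiments of its array profiling and reported that the siRNA reliably reduced it.

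let-7 was first described in Caenorhabditis elegans, where it times the transition from larval to adult cell fates. In mammals the mature let-7 miRNAs are abundant in differentiated cells and repress growth-promoting mRNAs such as those of RAS genes and HMGA2. Their hairpin precursors are cleaved by Drosha and Dicer, and LIN28 binds the precursors of most family members and blocks that processing. miR-98 carries the same seed, the stretch near the 5′ end through which a miRNA pairs with its targets, and is therefore counted with the family.

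The 9 mature sequences are shown because the members share a seed and are otherwise close to each other, which bears on how separately the probes can read them. They were taken from RefSeq (GRCm38.p6), where all 9 matched by name, and capitals mark bases 2 to 8, the seed.
let-7a: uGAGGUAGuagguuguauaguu
let-7b: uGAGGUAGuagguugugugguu
let-7c: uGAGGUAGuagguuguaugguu
let-7d: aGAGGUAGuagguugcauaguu
let-7e: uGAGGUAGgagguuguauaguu
let-7f: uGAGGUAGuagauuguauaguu
let-7g: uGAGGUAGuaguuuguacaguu
let-7i: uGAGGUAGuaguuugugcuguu
miR-98: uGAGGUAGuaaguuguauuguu

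Every member was 22 bases long and held 1 seed in common, and the members varied at 8 positions outside it. With positions counted from the 5′ end and let-7a as the starting sequence, let-7c differed by A19G, let-7e by U9G and let-7f by G12A. let-7b differed by A17G and A19G, let-7d by U1A and U16C, let-7g by G12U and U18C, and miR-98 by G11A and A19U. let-7i stood farthest from let-7a, with G12U, A17G, U18C and A19U. Over the 36 pairs of members the sequences differed at 1 to 6 positions. The array files give no probe sequences, and how far a probe of one member also binds another was not tested.

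The 9 miRNAs are encoded by 12 hairpins in the mouse genome, several of them side by side. On GRCm38.p6 Mirlet7d (chr13:48536012-48536114), Mirlet7f-1 and Mirlet7a-1 lie within 10000 bases of each other on the minus strand. Mirlet7c-2 and Mirlet7b (chr15:85707319-85707403) form another cluster, and Mirlet7f-2 and Mir98 (chrX:151913214-151913321) a further one. Mirlet7a-2 lies near Mir100 on chromosome 9, Mirlet7c-1 near Mir99a on chromosome 16, and Mirlet7e near Mir125a on chromosome 17. Mirlet7g (chr9:106178840-106178927) and Mirlet7i (chr10:122985640-122985724) had no other miRNA hairpin of the RefSeq table within that distance. These positions are from the reference and not from the array, whose design uses another build.

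The arrays themselves differed in brightness, and this touches every value below. Of the 567 mouse miRNAs, 147 and 162 were flagged as detected on the si arrays, against 177 and 190 on the con arrays. The 5 families of positive control probes on the array (19 probes), which are not miRNAs, were also dimmer in si, with log2 differences of -1.57 to -0.69 and a mean of -1.14, and the part of this dimming in the miRNA changes was not tested. No spot was saturated. As a check of the labelled line, the neural miRNAs miR-9 and miR-128 were detected on all 4 arrays and miR-124 and miR-137 on none. The muscle miRNAs miR-206, miR-133a, miR-133b and miR-1 were detected on all 4 arrays, and none of 3 blood markers or of 1 liver marker was detected on any. In con cells the 4 muscle miRNAs had signals of 692 to 5961, against 174 to 522 for miR-9 and miR-128. These markers therefore do not set the line apart as neural.

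All 9 members had less signal after RBM3 knockdown, and both si arrays lay below both con arrays for each of them, as they did for 87.7% of the 130 miRNAs detected on all arrays. Signals are the total signal of a miRNA over its probes, background-subtracted by the scanner software, in arbitrary units. mmu-let-7a had signals of 867 and 889 in si cells, against 4373 and 5199 in con cells. mmu-let-7b had 784 and 798 in si cells, against 3873 and 4597 in con cells. mmu-let-7c had 881 and 871 in si cells, against 4590 and 5434 in con cells. In these 3 miRNAs both si arrays lay close together and far below both con arrays, whose mean was 5.45, 5.35 and 5.72 times the si mean for let-7a, let-7b and let-7c.

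mmu-let-7d, the member with U1A and U16C, had signals of 399 and 388 in si cells, against 1841 and 2158 in con cells. mmu-let-7e had 142 and 137 in si cells, against 600 and 720 in con cells. mmu-let-7f had 809 and 836 in si cells, against 3762 and 4398 in con cells. The si mean was 19.7% of the con mean for let-7d, 21.1% for let-7e and 20.2% for let-7f.

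mmu-let-7g, encoded by a single hairpin, had signals of 236 and 241 in si cells, against 1176 and 1364 in con cells. mmu-let-7i, likewise from a single hairpin, had 541 and 535 in si cells, against 2953 and 3593 in con cells. mmu-miR-98 had 71.7 and 75.5 in si cells, against 324 and 366 in con cells. let-7i kept the smallest share of its con signal, 16.4%, and miR-98 the greatest, 21.3%, with let-7g at 18.8%. The spread between the arrays of a group was small beside these differences. let-7i, for example, averaged 538 ± 4.33 in si cells and 3273 ± 452 in con cells (SD, n = 2 each), and miR-98 averaged 73.6 ± 2.64 in si cells and 345 ± 29.6 in con cells. All 9 were flagged as detected on all 4 arrays, and the scanner software put its own error at 7.09% to 10.6% of the signal.

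**Figure D1:**
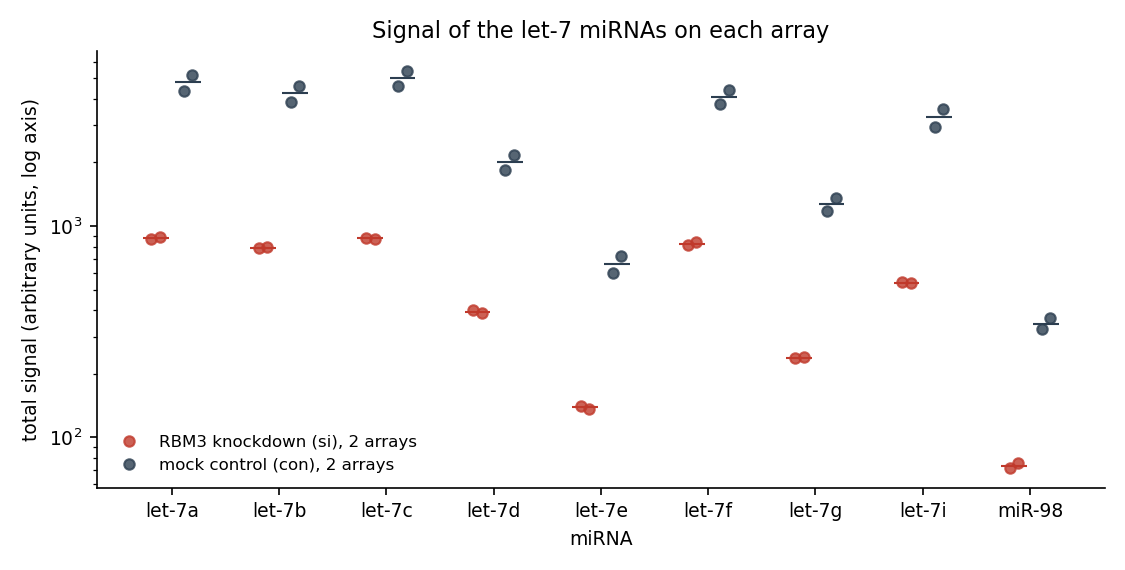
Total signal (arbitrary units, log axis) of the 9 let-7 miRNAs on each array, with RBM3 knockdown (si, red) left of mock control (con, dark); points are arrays and lines are group means. Every si point lies below every con point of the same miRNA, as with let-7a at 867 and 889 in si cells against 4373 and 5199 in con cells.

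Whether these differences exceed the spread between arrays was tested with limma over the 214 mouse miRNAs detected on at least 1 array. The fit used log2(signal + 20) after scale normalization, with Benjamini-Hochberg adjustment over all 214. This scaling multiplied the log2 values by 1.012 on both si arrays and by 0.993 and 0.984 on the con arrays. Its factors come from the median over all 567 mouse miRNAs, of which only the 214 were detected on any array. The values therefore stay close to unscaled ones, and most of the brightness difference between the arrays remains in them. All 9 members passed at 0.05 as lower in si, and 77.1% of all miRNAs tested did so too (165 of 214), so the count sits in a background where most miRNAs were called lower. That background includes 41 miRNAs detected in con only and 13 in si only. In a fit over the 130 miRNAs detected on all arrays, as the 9 members were, 85.4% were called lower (111 of 130). The members' log2 changes ran between -2.31 for let-7i (SE 0.103, adjusted p = 1.002e-09) and -1.78 for miR-98 (SE 0.0988, adjusted p = 2.53e-09). Between these lay let-7c at -2.22, let-7a at -2.15, let-7b at -2.13, let-7g at -2.10, let-7d at -2.05, let-7f at -2.02 and let-7e at -1.89, all on the log2(signal + 20) scale, which understates the change of dim miRNAs. The family median was -2.10, beside -1.22 over all miRNAs tested. In the same fit 38 miRNAs (17.8%) were higher in si and no member was among them. Since nothing in the labels says that the 2 samples of a group came from separate cultures, these p-values measure only the spread between these arrays. Over the samples alone, an exact two-sided permutation test of the family mean, with a difference of -2.07 (si minus con), gave p = 0.333, the smallest that 2 against 2 arrays allow.

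The direction of the family change rested on how the arrays were brought to a common scale. With no scaling the 9 members were all called lower, as were 78% of all miRNAs tested, and their median was -2.31. With the positive control probes as the centre of each array, the 9 members were all called lower, beside 50.9% of all miRNAs tested, with a median of -1.17. Centred on the 75th percentile of the miRNAs detected on all arrays, which takes out the dimming of the detected miRNAs by construction, the median was -0.21 and 4 members (let-7a, let-7b, let-7c and let-7i) were called lower, beside 9.81% of all miRNAs tested. Scale normalization over the miRNAs detected on all arrays called 0 members lower and 4 higher, with a median of 0.10, beside 20.6% of all miRNAs lower and 48.1% higher. Scale normalization after setting low signals to a floor of 0.5 called all 9 higher, with a median of 3.11, beside 61.2% of all miRNAs. Its factors multiplied the log2 values by up to 1.338 on the si arrays and by 0.812 and 0.707 on the con arrays. They come from the median over all 567 mouse miRNAs, at signals of 2.15 to 4.24, which undetected miRNAs exceeded on every array. The same floor with no scaling called all 9 lower, beside 76.2% of all miRNAs, so the rise came with these factors. Set against the median of the miRNAs detected on all arrays, the family mean differed by -0.37 on the log2 scale (si minus con), and the exact permutation test again gave p = 0.333.

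**Figure D2:**
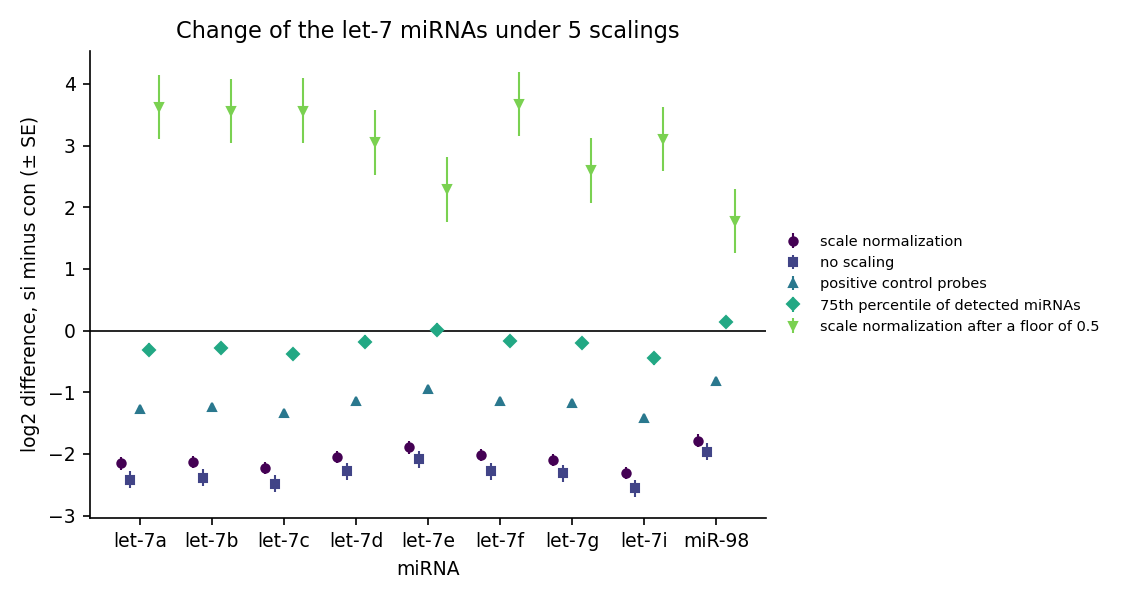
Log2 difference, si minus con (± SE from limma), of the 9 let-7 miRNAs under 5 ways of scaling the arrays, 1 symbol per scaling, with 0 drawn as a line. The family median lies at -2.10 with scale normalization and -2.31 with no scaling, at -0.21 when centred on the detected miRNAs, and at 3.11 when scaled after a floor of 0.5. With no scaling and with scaling after the floor, limma gave every miRNA the same SE (0.138 and 0.521).

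Among the 130 miRNAs detected on all 4 arrays, the share of con signal kept in si had a median of 21.8% (quartiles 18.2% and 38.7%), and 115 of the 130 kept less than 100%. The 9 members, between 16.4% and 21.3% with a median of 18.8%, all lay below that median, and let-7c and let-7i also below the lower quartile. Of the 130 miRNAs, 19 kept less than let-7i and 66 kept more than miR-98. The members took up 6.47% and 6.40% of the summed signal of these miRNAs on the si arrays, against 14.3% and 15.3% on the con arrays. Part of that difference came with 1 bright name, miR-720, chosen after its values were seen. Without it the family share was 11.7% and 11.4% in si, against 18.5% and 19.4% in con.

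**Figure D3:**
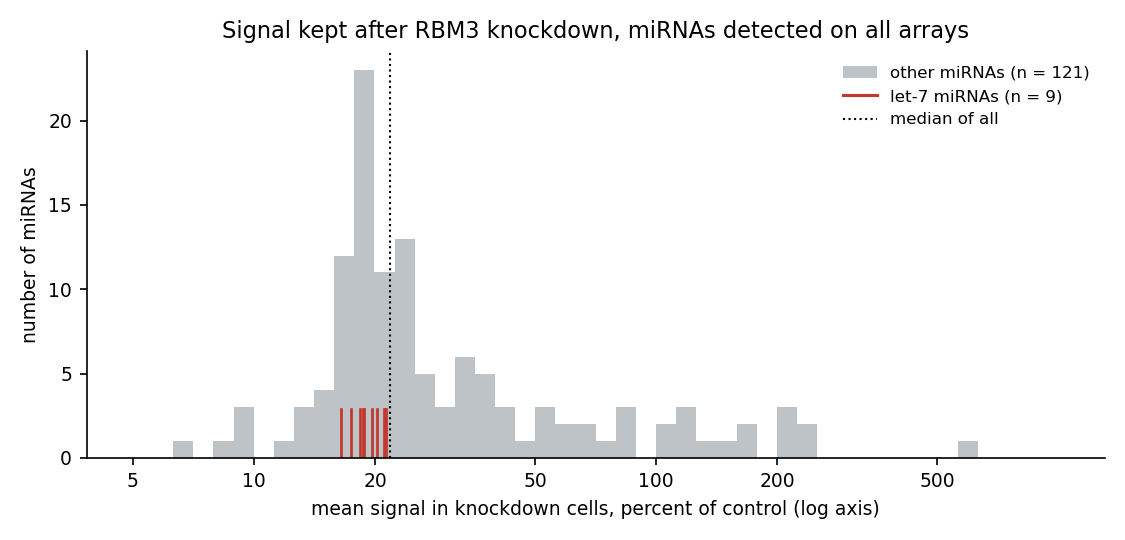
Histogram of the mean si signal as a percent of the mean con signal (log axis) for the miRNAs detected on all 4 arrays, with the 9 let-7 miRNAs as red ticks and the median of all, 21.8%, as a dotted line. The red ticks fall between 16.4% and 21.3%, to the left of the dotted line.

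Each member was read by 2 probes, each printed in 10 spots per array, and the probes of a member kept nearly the same share of signal. Every one of the 360 si spots and of the 360 con spots was well above background. Over the 18 probes the mean processed signal in si was 16.9% to 22.5% of that in con. The 2 probes of a member lay 0.778 percentage points apart in the median. They were closest for let-7a, at 18.9% and 19.0%, and farthest apart for let-7c, at 17.0% and 18.8%. Spots of 1 probe on 1 array varied with a coefficient of variation of 0.943% to 14.1%, after 31 of the 720 spots had been left out as outliers flagged by the scanner software. In a limma fit with no scaling over the 206 probes that were well above background, all 18 were lower in si, with log2 changes of -2.56 to -2.15. The SE of 0.126 was the same for all 18 and so does not carry the spread of any single probe. The median over all 206 was -2.09, and 85% of them were lower. When the arrays were centred on the 75th percentile over these probes, 13 of the 18 were called lower, beside 37.9% of all 206, and their changes ran from -0.51 to -0.10.

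**Figure D4:**
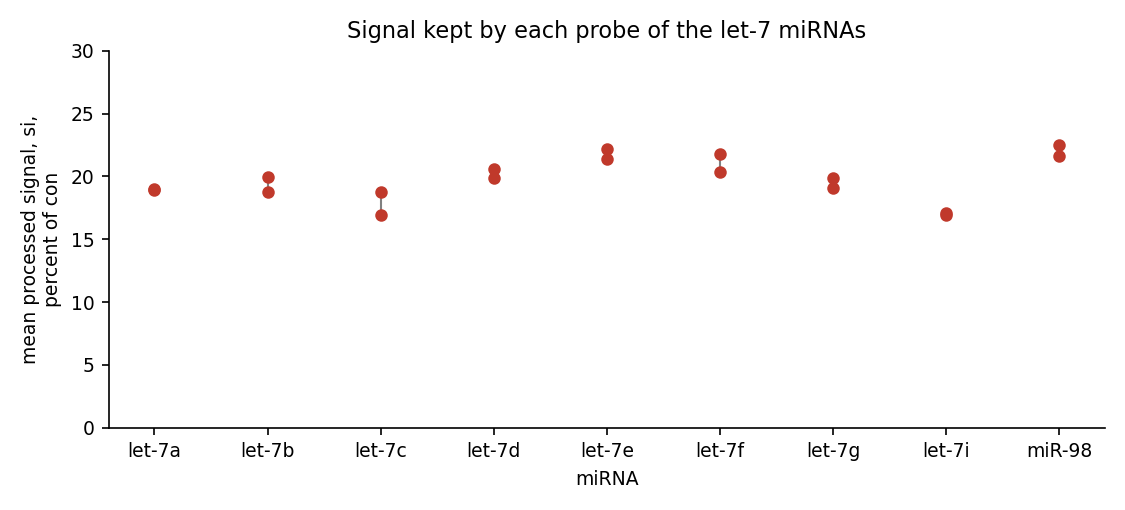
Mean processed signal of each probe in si as a percent of con, 2 probes per miRNA joined by a line, for the 9 let-7 miRNAs. All 18 probes lie between 16.9% and 22.5%, and the probes of let-7a and let-7i nearly coincide.

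Each member was also tested against the mean of the 9 on the same array. With the offset added to the signals, this takes out array brightness only in part. An equal dimming of all miRNAs gives a smaller log2 change in dim ones, and miR-98 had the lowest signals of the 9. A rescaling of the log2 values is not taken out either. let-7i fell by 0.23 more than that mean (SE 0.0448, adjusted p = 0.030, limma over 214 miRNAs), and miR-98 was higher by 0.29 relative to it (SE 0.0498, adjusted p = 0.024). These 2 of 9 members passed, where 80.8% of the 214 miRNAs tested differed from the family mean by the same test (45.8% with a floor of 0.5 and no scaling). let-7c at -0.15 and let-7e at 0.18 did not pass, both with adjusted p = 0.058, but passed with no scaling, with an intensity trend and over the miRNAs detected on all arrays. The other 5 members lay between -0.08 and 0.05.

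Which members stood apart changed with the processing. With a floor of 0.5 and no scaling, in place of the offset of 20 and scale normalization, let-7i (-0.21, adjusted p = 0.102) and miR-98 (0.16, adjusted p = 0.188) no longer passed. Nor did they with the processed signal per probe, also unscaled (adjusted p = 0.102 for let-7i and 0.202 for miR-98). let-7i also missed the threshold without con replicate 2 (adjusted p = 0.076). Against the median of the members in place of their mean it stood at 0, being that median itself on each array, and let-7d, let-7e, let-7f and miR-98 passed. In scalings added after the data were seen, miR-98 turned to -0.23 with scale normalization over the miRNAs detected on all arrays and to -1.25 with scale normalization after a floor of 0.5, so it is not placed above or below its relatives here.

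The gaps between members in log2 change were also set against the number of bases at which their sequences differ. Over all 36 pairs the widest gap was 0.52. The 4 pairs that differ at 1 position lay 0.07 to 0.26 apart in log2 change, with a median of 0.11. The medians were 0.17 for the 10 pairs with 2 differences, 0.17 for the 11 pairs with 3 and 0.15 for the 9 pairs with 4. The single pairs with 5 and 6 differences lay 0.42 and 0.26 apart. These gaps share members and are given as a description.

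A further 5 miRNAs are encoded beside let-7 hairpins or in the same kind of cluster: miR-99a, miR-99b and miR-100, which form a seed family of their own, and miR-125a-5p and miR-125b-5p, the mammalian relatives of the C. elegans timing gene lin-4. miR-125b-5p had signals of 521 and 460 in si cells, against 4862 and 5584 in con cells. miR-125a-5p had 45.2 and 35.8 in si cells, against 380 and 454 in con cells. The 2 miR-125 miRNAs kept 9.39% and 9.72% of their con signal, less than any let-7 member. Relative to the let-7 mean miR-125b-5p fell by 1.03 (SE 0.0596, adjusted p = 0.0036) and miR-125a-5p fell by 0.60 (SE 0.0952, adjusted p = 0.020). With a floor of 0.5 and no scaling the values were -1.02 and -0.98. Both lay below the let-7 mean and passed under every alternative run for this test, with values of -1.80 to -0.61 for miR-125b-5p and -2.59 to -0.37 for miR-125a-5p.

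The miR-99 and miR-100 group held no common position relative to let-7. miR-99b had signals of 48.9 and 47.7 in si cells, against 284 and 324 in con cells, a share of 15.9%. miR-100 had 27.6 and 26.9 in si cells, against 147 and 184 in con cells, a share of 16.5%. Relative to the let-7 mean, miR-99b differed by 0.0015 (adjusted p = 0.981) and miR-100 by 0.26 (adjusted p = 0.036). With a floor of 0.5 and no scaling the miR-99b difference was -0.26 (adjusted p = 0.065), and with scale normalization over detected miRNAs it was -0.59 (adjusted p = 0.0045). The miR-100 difference turned to -0.21 with the unscaled floor of 0.5 (adjusted p = 0.140) and was 0.22 without con replicate 1. miR-99a had 4.13 and 3.66 in si cells, where it was not detected, against 37.6 and 43.9 in con cells. It entered the fit only through its detection on the con arrays. Its call as lower in si, at -1.22 on the log2(signal + 20) scale, carries that selection, and no p-value is given. No fold is given, because undetected miRNAs reached signals of 21.2 and 19.2 on the si arrays. The difference of miR-99a from the let-7 mean was 0.85 with the offset of 20 and -0.999 with the unscaled floor of 0.5, so its direction is not given. All 5 of these miRNAs were called lower in si in the fit over 214 miRNAs, where 77.1% of all were, with miR-99a tested only through the con arrays. Of the 5, 2 were called lower when the 75th percentile of detected miRNAs was the centre of each array. With scale normalization after a floor of 0.5, 1 was called lower, and it was miR-99a.

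**Figure D5:**
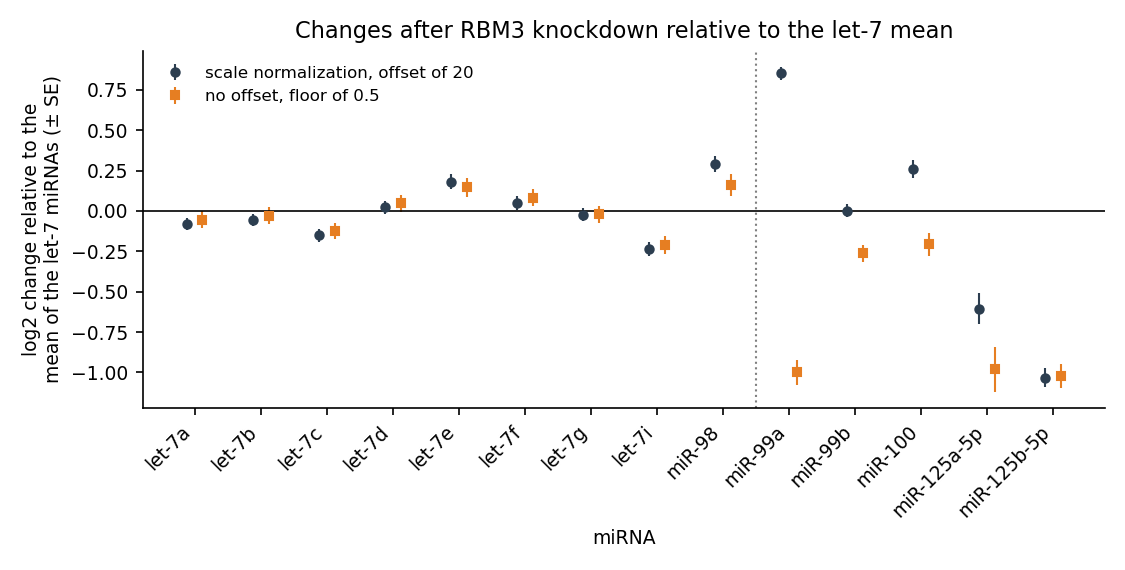
Log2 change, si minus con (± SE from limma), relative to the mean of the 9 let-7 miRNAs, for the members (left of the dotted line) and the hairpin neighbours. Dark symbols are with the offset of 20 and scale normalization, and orange ones with a floor of 0.5 and no scaling. Members lie between -0.23 and 0.29, the miR-125 miRNAs lie below them, and miR-99a and miR-100 change sides between the offset and the floor.

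The other strands of the let-7 hairpins, marked with an asterisk in the array's names, were mostly not detected. Of 7 such arms on the array, let-7b*, let-7c-1*, let-7d*, let-7f*, let-7g* and let-7i* were detected on none of the 4 arrays, with signals from -10.2 to 7.30. let-7c-2* was detected on both con arrays and on neither si array, with 6.56 and 2.60 in si cells, against 19.6 and 19.3 in con cells. It entered the fit only through its detection on the con arrays. Its call as lower in si, at -0.57 on the log2(signal + 20) scale, carries that selection, and no p-value is given. It was called higher with scale normalization over detected miRNAs (0.52). The same held when arrays were centred on their 75th percentile (1.42) or on the positive control probes (0.46). No fold is given, since undetected miRNAs reached signals above its con level. Its RefSeq sequence is printed because another let-7 arm shares it, so its signal cannot be assigned to a single hairpin.
let-7c-2*: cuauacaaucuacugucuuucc
The sequence was identical to that of the let-7a-1-3p arm, of hairpin Mirlet7a-1 in the chromosome 13 cluster.

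The miRNAs whose pattern over the 4 arrays lay nearest to the let-7 mean were miR-107, miR-99b, miR-26a, miR-30a and miR-106b. Likeness was the root mean square difference, over 4 arrays, between each miRNA's log2 values and the family mean, both centred on their own mean. It was 0.014 for miR-107, 0.015 for miR-99b and 0.029 for each of the other 3, while the members themselves lay between 0.015 and 0.147 from their mean. miR-107 had signals of 106 and 104.4 in si cells, against 548 and 635 in con cells. Of the 121 other miRNAs detected on all arrays, 38 lay within the members' range, and the median distance was 0.254. With no scaling 4 of the 5 names remained nearest, 1 did with a floor of 0.5 and no scaling, and 0 did with quantile normalization or with scale normalization over detected miRNAs.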

How the data were processed

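Per the labels, RNA was isolated with the mirVana kit and Cy3-labelled. The authors scanned the arrays and extracted them with Feature Extraction 10.1.1.1. The deposited files hold a background-subtracted intensity per spot and a total intensity with a detection flag per miRNA. The deposited value table is that total plus 20, unscaled. The labels name a spike-in kit, yet the 12 dmr probes lay at background (-7.02 to 5.01), so no spike-in was used for scaling.

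From these, log2(total signal + 20) was scale-normalized over all 567 mouse miRNAs (R 4.3.3, limma 3.58.1), and the 214 detected on at least 1 array were fitted (lmFit, eBayes, Benjamini-Hochberg at 0.05) with the replicate number as a block, since the study's methods fitted paired samples, which left 1 residual degree of freedom. The offset was taken over a floor of 0.5 with it known that the floor with scaling turns most directions. Deviations of arrays with the same number were not shared (r = -0.33 across 214 miRNAs). Each relative change was fitted after subtracting the mean of the 9 members. The members, lists and tests were chosen with earlier results of these data known. Named were the members, their passenger arms, 5 hairpin neighbours, the 5 miRNAs nearest in pattern and the cell type markers, with any other name marked. The script was tested on simulated data. The number of arrays limits the precision.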

Additional observations from a re-analysis of the deposited data

How the results depend on the processing

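There were 2 arrays a group and 1 residual degree of freedom. The direction of the family change (-2.10 in the report) turned with the scaling of the arrays, to 3.11 at most, and no spike-in signal was at hand to fix the scale. The 3.11 came with factors that multiplied the log2 values up on the si arrays and down on the con arrays. The same floor of 0.5 without them gave -2.41. The cause of the other values that moved was not tested, but centring on detected miRNAs removes a shared fall by construction. All values are log2 changes, si minus con, or counts of miRNAs.

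The family median was -2.10 in the report and -2.31 with no scaling and with the deposited values, -1.67 centred on the 75th percentile over the whole mouse set, -1.17 on positive control probes, -0.21 on the 75th percentile of detected miRNAs, -0.36 with quantile normalization, -0.35 with normexp, -0.31 and -1.81 with processed signals centred on detected or on all probes, -2.41 with a floor of 0.5 and -2.40 with an offset of 1. It turned to 0.10 with scale normalization over detected miRNAs, 0.30 with their median absolute deviation and 3.11 with a floor of 0.5 and scaling. Leaving out 1 array at a time gave -2.15 to -2.04.

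The family median minus that of all miRNAs tested was -0.88. It was -0.94 with no scaling, with the deposited values and with every centring of the total signal (on either 75th percentile or on positive controls), -0.11 with scaling over detected miRNAs, -0.023 with quantile normalization, -0.15 with normexp, -0.25 with a floor of 0.5 and no scaling, -0.30 with an offset of 1, -0.24 and -0.27 with processed signals centred on detected or on all probes, -0.40 over miRNAs detected on all arrays, -2.11 with no detection filter, and -0.90 to -0.86 leaving out 1 array at a time. It turned to 0.13 with the median absolute deviation and 1.20 with a floor of 0.5 and scaling.

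The count of members called lower, 9 in the report, was 0 with scaling over detected miRNAs, 0 with the median absolute deviation, 0 with a floor of 0.5 and scaling, 4 centred on the 75th percentile of detected miRNAs and 2 with processed signals centred on detected probes, and with quantile normalization it was 6, with let-7b, let-7f and let-7i lost. It was 9 whenever 1 array was left out. In the order of the first 5 all miRNAs tested gave 44, 54, 19, 21 and 45 lower (165 in the report) and 103, 96, 131, 140 and 70 higher (38 in the report). Positive controls gave 109 lower and 74 higher, quantile normalization 103 lower, detection on all arrays 14 higher and a 1.5-fold minimum 19 higher. Leaving out 1 array gave 161 to 167 lower and 35 to 40 higher.

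Scaling over detected miRNAs turned let-7a to 0.26, let-7b to 0.25, let-7c to 0.19, let-7d to 0.10, let-7f to 0.36 and let-7c-2* to 0.52. The median absolute deviation turned let-7a to 0.57, let-7b to 0.54, let-7c to 0.51, let-7d to 0.30, let-7f to 0.65, let-7g to 0.039, let-7i to 0.21 and let-7c-2* to 0.26. A floor of 0.5 with scaling turned let-7a to 3.62, let-7b to 3.56, let-7c to 3.57, let-7d to 3.05, let-7e to 2.29, let-7f to 3.67, let-7g to 2.60, let-7i to 3.11, miR-98 to 1.78, miR-99b to 1.12, miR-100 to 0.71, miR-125a-5p to 0.43 and miR-125b-5p to 2.41. Centring on the 75th percentile of detected miRNAs turned let-7e to 0.017, miR-98 to 0.14, miR-99a to 0.76, miR-100 to 0.14 and let-7c-2* to 1.42. For let-7c-2* positive controls gave 0.46 and processed signals 1.09 (detected probes) and 0.0076 (all probes).

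The passenger arm let-7c-2* was called lower in the report and in each fit without 1 array (1 of 1 tested) and in 0 cases with a 1.5-fold minimum, with normexp, with quantile normalization, with processed signals and with every other scaling but none; it was not tested where detection on all arrays was required, which gave 0. Of the 5 hairpin neighbours, 2 were lower centred on the 75th percentile of detected miRNAs and 1, miR-99a, with a floor of 0.5 and scaling. Both let-7c-2* and miR-99a were tested only through their detection on the con arrays, and their calls as lower carry that selection.

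Of the members, 2 stood apart from the family mean in the report, 0 with a floor of 0.5 and 0 with processed signals, 4 over miRNAs detected on all arrays, 4 with an intensity trend, 4 against the median of the members (let-7i not among them), and 1 to 2 leaving out 1 array. Without the replicate block 4 stood apart, let-7c and let-7e being added (adjusted p = 0.0375 and 0.026), and 9 members and 18 probes were lower with or without the block. Relative to the family mean, miR-99a turned to -0.999 and miR-100 to -0.21 with a floor of 0.5, and to -1.28 and -0.29 with processed signals. Scalings added after seeing the data moved these calls further. With no scaling 4 members stood apart, with quantile normalization 1, with the median absolute deviation 7 and with a floor of 0.5 and scaling 6. In the order of scaling over detected miRNAs, quantile normalization, median absolute deviation and floor with scaling, miR-99a turned to -0.16, -0.60, -0.61 and -4.50, miR-99b to -0.59, -0.44, -0.85 and -1.91, and miR-100 to -0.47, -0.40, -0.80 and -2.32. miR-98 turned to -0.23 with scaling over detected miRNAs, -0.46 with the median absolute deviation and -1.25 with floor and scaling. With the median absolute deviation and with floor and scaling, let-7a turned to 0.27 and 0.59, let-7b to 0.25 and 0.53, let-7c to 0.21 and 0.54, and let-7e to -0.30 and -0.74, and let-7i turned to 0.082 with floor and scaling. With si replicate 1 paired to con replicate 2, a pairing chosen after seeing the data, 9 members were lower and 2 stood apart.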
